A study of Drosophila melanogaster with 3 samples.

Results

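The proneural genes and their closest partners were examined as a set of 10 loci in a chromatin immunoprecipitation sequencing (ChIP-seq) study of the protein net in Drosophila melanogaster. The set held da, emc, ac, sc, l(1)sc, ase, ato, amos, cato and tap, which are 10 of the 17947 annotated genes used on build dm6 and of the 13968 that code for protein. These counts cover the named chromosome arms and leave out transposable elements and pseudogenes. The set was fixed by gene name. For each gene, every peak summit inside the gene or within 2 kb of it was taken from the deposited peak lists. At these loci, emc had 5 summits of the authors' thresholded peak list, da had 1, and the other 8 genes had none.

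The flies carried a transgene that expressed net with enhanced green fluorescent protein (GFP) at its C-terminal end; the labels used here give neither its promoter nor its copy number. Whole prepupae, animals at the onset of metamorphosis, of both sexes pooled and of unknown age were used, and chromatin sheared by sonication was precipitated with an antibody against GFP. The 3 libraries, biological replicates 1, 3 and 4, form a single group with no untreated or untagged comparison, and the control alignment behind the peak calls was not analysed here. Binding by net and any other signal of a GFP precipitation therefore cannot be told apart, nor can strong binding in few cells and weak binding in many. The lists hold no reads of marker genes, so the labelled tissue could not be checked.

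Basic helix-loop-helix (bHLH) proteins bind DNA as dimers, usually at E-boxes, which are sites of the form CANNTG where N is any base. In the fly, the proneural proteins Achaete, Scute, Lethal of scute, Atonal and Amos pair with the broadly present Daughterless and switch on neural precursor fate in the ectoderm. Extramacrochaetae, an HLH protein that lacks the basic DNA-contacting region, pairs with them and keeps them off DNA. The gene net encodes another bHLH protein, known for keeping wing vein fate out of the intervein regions.

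A relaxed list of 30000 peaks called on the pooled libraries served as the wider list, and its 7571 peaks of highest signal made up the list that the authors thresholded by irreproducible discovery rate (IDR). A place in the IDR list is therefore a place in the pooled ranking and does not show that a summit ranked alike across libraries. Signal is the authors' value per peak and was used here only to rank peaks within a list, with rank 1 the strongest. IDR peaks ran from signal 134 to 3742 with a median of 225, and the weakest relaxed peak had 34.1. In each library's own list of 30000 peaks, a summit within 100 bp of the pooled summit counted as a match. Libraries 1, 3 and 4 matched 94.8%, 95.0% and 94.3% of the IDR summits. The lists give no read counts, so the depth behind each peak is unknown.

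The sequences below are those of the 6 IDR summits at da and emc, shown because they are the strongest at these genes and because the E-box is the site that bHLH proteins recognise. Each run covers 50 bases on either side of the summit and was read from RefSeq's Release 6 genome. It is given on the plus strand of dm6, in which direction da and emc are also transcribed. A run that would enter an exon at the start site stops there. Capitals mark E-boxes. Labels give the distance from the start site of the gene in bp.
da -19 (chr2L:10388036-10388104): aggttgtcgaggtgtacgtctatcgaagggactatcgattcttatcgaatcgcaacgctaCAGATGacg
emc -12 (chr3L:749338-749399): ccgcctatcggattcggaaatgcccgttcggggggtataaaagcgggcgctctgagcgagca
emc +2321 (chr3L:751671-751771): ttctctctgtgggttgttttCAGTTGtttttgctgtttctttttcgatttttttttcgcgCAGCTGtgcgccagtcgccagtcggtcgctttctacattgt
emc +2528 (chr3L:751878-751978): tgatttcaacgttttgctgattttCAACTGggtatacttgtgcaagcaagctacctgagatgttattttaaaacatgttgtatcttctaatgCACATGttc
emc +4660 (chr3L:754010-754110): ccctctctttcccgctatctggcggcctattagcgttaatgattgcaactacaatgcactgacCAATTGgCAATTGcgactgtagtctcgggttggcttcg
emc +5407 (chr3L:754757-754857): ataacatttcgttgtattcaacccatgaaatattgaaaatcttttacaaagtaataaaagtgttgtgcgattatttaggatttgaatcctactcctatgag
The promoter runs of both genes also hold short words known from promoters. TATAAA, the core of the TATA box, starts 27 bp upstream of the emc start site, and TATCGAT, the core of the element bound by the factor DREF, starts 37 bp upstream of that of da. Both words were picked after the sequences had been read. On either strand, TATAAA lies within 50 bp of 18.1% of all IDR summits and of 15.8% of those within 500 bp of a transcription start site (TSS), against 1.74% and 3.18% for TATCGAT.

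An IDR summit inside the gene or up to 2 kb away was found for 2 of the 10 genes (20%), beside 34.4% of all protein-coding genes. The relaxed list added sc and ato and brought the count to 4 (40%), beside 54.4% of all protein-coding genes. The 8 genes without an IDR summit were all under 3 kb in span, a class in which 24.4% of protein-coding genes had an IDR summit and 43.7% had a relaxed summit. Of the 8, sc and ato had a relaxed summit. The pair that had IDR summits, da (span 5124 bp) and emc (span 4093 bp), falls in the class of 3 kb or more, in which 50.7% of genes had an IDR summit. With 10 genes these shares are a description, and none was tested.

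**Figure D1:**
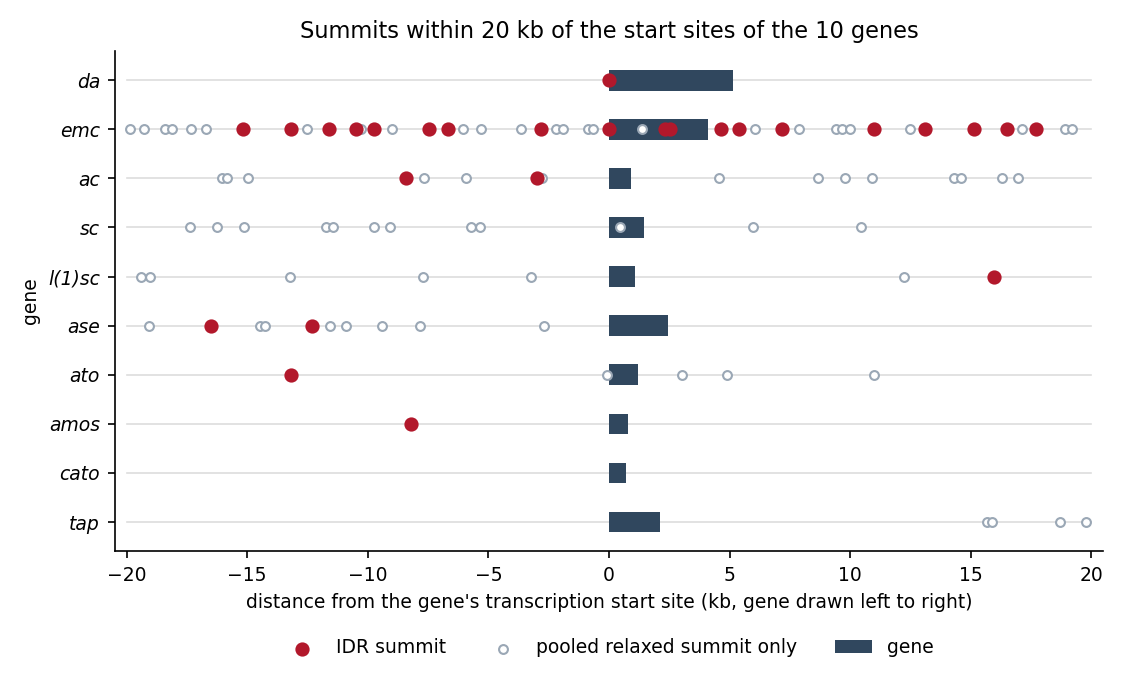
Positions of pooled summits within 20 kb of the transcription start site of each of the 10 genes, with the gene drawn left to right as a bar, the x axis in kb from the start site and the y axis naming the gene. Filled red points are IDR summits and open grey points are summits of the relaxed list only; emc shows a dense row of red points, while cato shows no summit of either list in the window.

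Daughterless is the shared dimer partner of the proneural proteins and the fly's E protein. Its gene, da (FBgn0267821, 2L from 10388105 to 10393228, plus strand), had 1 summit, at 10388086 in a peak from 10387856 to 10388315. It lay in intergenic sequence 19 bp upstream of the da start site, with signal 166 and rank 5802 of 7571. Its rank was 12703 in library 1 and 4933 in library 4, and library 3 had no summit within 100 bp. The summit thus ranked high in library 4, lower in library 1 and was absent from library 3. Its E-box, CAGATG, starts 10 bp to the right of the summit, and 4.04% of all IDR summits have this core within 50 bp.

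This was the only pooled relaxed summit within 20 kb of da. The next pooled relaxed summits lay 48459 bp to the left and 79059 bp to the right of the start site. In library 3 no summit at all lay between 111098 bp left and 79058 bp right of it, a gap of 190.156 kb, and only 22 of the 29994 gaps between neighbouring summits in that list were as long. Libraries 1 and 4 each had summits close by, 4 and 3 within 20 kb. Library 4 had a stronger summit than the one at da, of rank 2089, at 10386506. It fell between Cdk1, which encodes a mitotic cyclin-dependent kinase, and mRpS7, which encodes a mitochondrial ribosomal protein, 1580 bp from the pooled summit. Library 1 had a summit of rank 13178 there, at 10386462, and the pooled relaxed list had none. Among the 7571 strongest summits of a library, 2.46%, 2.68% and 1.40% in libraries 1, 3 and 4 had no pooled relaxed summit within 1 kb. The da summit also lies within 2 kb of Cdk1 and mRpS7, so the rule counts it for 3 genes. What sets library 3 apart at this locus was not tested. When a summit had to be matched among the 7571 strongest of every library, or of any pair of libraries, da had none and the count of genes with an IDR summit fell from 2 to 1.

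Extramacrochaetae is the inhibitor of the set, a counterpart of the vertebrate Id proteins. Its gene, emc (FBgn0000575, 3L from 749400 to 753492, plus strand), lies wholly inside an intron of hng3 (FBgn0035160) on the opposite strand, and it carried 5 of the 6 IDR summits and 10 of the 14 relaxed summits found at the 10 genes. Among the 9838 protein-coding genes no longer than emc, 8 had 5 or more IDR summits, or 0.0813%. That class ends at the length of emc and the cut of 5 is the emc count itself. The share therefore does not compare emc with genes of like length. The 5 summits span 5419 bp and fall into a promoter summit, a pair in the emc intron and a pair downstream of the gene.

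The strongest of them was in the intron. It lay at 751721, 2321 bp downstream of the start site, in a peak from 751643 to 751828, with signal 396 and rank 1546. Its ranks were 1790, 1338 and 1890 in libraries 1, 3 and 4, with a mean of 1673 ± 294 (SD, n = 3). All 3 libraries thus placed it within a narrow band near the top of their lists. It holds E-boxes on both sides of the summit, CAGTTG 30 bp to the left and CAGCTG 10 bp to the right. CAGCTG occurs at 4.42% of IDR summits, and CAACTG, which is CAGTTG read on the other strand, at 5.52%.

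The other intron summit, 207 bp away at 751928 in a peak from 751834 to 751991, had signal 195 and rank 4653. Its ranks were 7020, 7051 and 12878, with a mean of 8983 ± 3373 (SD, n = 3). Libraries 1 and 3 placed it alike and library 4 lower, and in every library it ranked below its neighbour. It too has a pair of E-boxes, CAACTG 26 bp to the left and CACATG 42 bp to the right of the summit.

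The promoter summit lay at 749388, 12 bp upstream of the emc start site, in a peak from 749313 to 749480, with signal 271 and rank 2888. Its ranks were 2602, 1715 and 6535, with a mean of 3617 ± 2565 (SD, n = 3). Library 4 placed it well below the others. In each library it ranked below the intron summit at 751721 and above the one at 751928. Over the libraries its ranks overlapped those of 751721 and not those of 751928. No E-box lies within 50 bp, and the window has a GC content of 56.4%, above the upper quartile of 43.6% over all IDR summits.

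The downstream pair sat close to the lower limit of the IDR list and nearer to the start of hng3 than to that of emc. The summit at 754060 (peak from 753830 to 754289) had signal 135 and rank 7509, and ranks 8741 and 4791 in libraries 1 and 3. Library 4 had no summit within 100 bp, with its nearest 143 bp away. It lies 1429 bp inside the hng3 start site and holds CAATTG at 2 places. The summit at 754807 (peak from 754577 to 755036) had signal 135 and rank 7502, and ranks of 13150, 6035 and 5960, with a mean of 8382 ± 4130 (SD, n = 3). It lies 682 bp inside the hng3 start site and has no E-box. Both are within the hng3 intron, and the rule does not say which gene, if either, they act on.

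**Figure D2:**
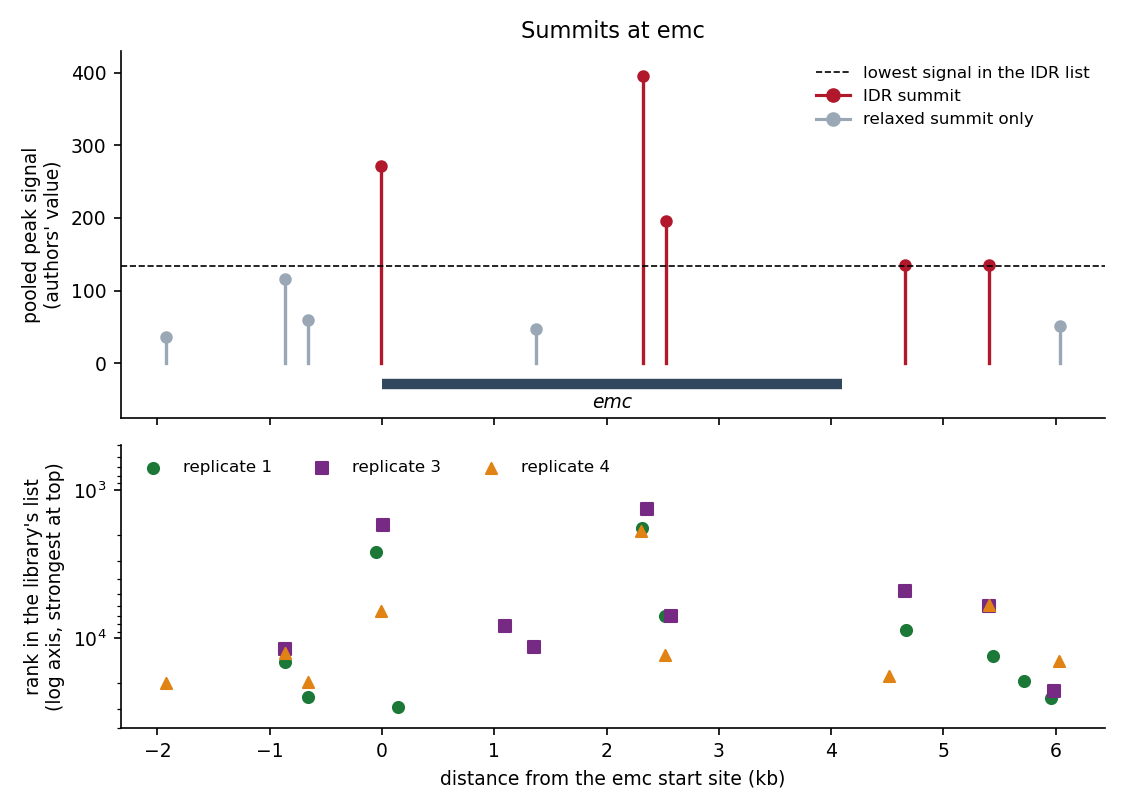
Upper panel: pooled signal (the authors' value) of each summit within emc or 2 kb, against distance from the emc start site in kb, with the dashed line at the lowest signal in the IDR list. Lower panel: rank of each summit in each library's own list on a log axis with the strongest at the top; around +2321 bp the 3 libraries lie together between ranks 1338 and 1890, while at the start site they run from 1715 to 6535.

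Below the IDR limit, emc had 5 further relaxed summits, of signal 36.8 to 116. The strongest of these, at 748539 and 861 bp upstream of the start site, ranked 8964 in the pooled list and 14342, 11705 and 12574 in libraries 1, 3 and 4 (mean 12874 ± 1344, SD, n = 3). It and a summit in the 5′ UTR of hng3, at 755439 with signal 51.1, were matched in all 3 libraries. The other 3 were matched in 1 or 2 of them. The emc upstream region thus had a weak summit outside the IDR list that every library found.

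The wider emc neighbourhood was rich in summits. Within 10 kb of the gene lay 12 IDR summits, a number reached by 0.694% of protein-coding genes, and within 20 kb lay 20, reached by 0.186%. On the upstream side they include summits at 746577 (signal 281, mean rank 2956 ± 576, SD, n = 3) and 742733 (signal 262, mean rank 3291 ± 728, SD, n = 3), both in the hng3 intron. The highest signal within 20 kb of the emc start site, 905, was at position -10479 bp from it. On the downstream side, intergenic sequence at 762519, 13119 bp from the emc start site, had a signal of 755, with ranks of 382, 382 and 599 and a mean of 454 ± 125 (SD, n = 3). All 3 libraries placed it above every summit at emc itself.

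Over the 6 IDR summits at da and emc, 4 (66.7%) were matched in all 3 libraries, beside 85.9% of all IDR summits. The 2 that were not are da at its promoter and emc at 754060. Of the 8 relaxed-only summits at the 10 genes, 2 were matched in all libraries, beside 24.1% of all relaxed-only summits. Promoter summits, within 500 bp of a TSS, numbered 2 of 6 beside 36.5% of all IDR summits. An E-box within 50 bp was present at 4 of 6, beside 36.7% of all IDR summits, and widening the window to 100 bp gave 5 beside 61.1%. With 6 summits, 5 of them at 1 gene, these counts describe emc more than the set.

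**Figure D3:**
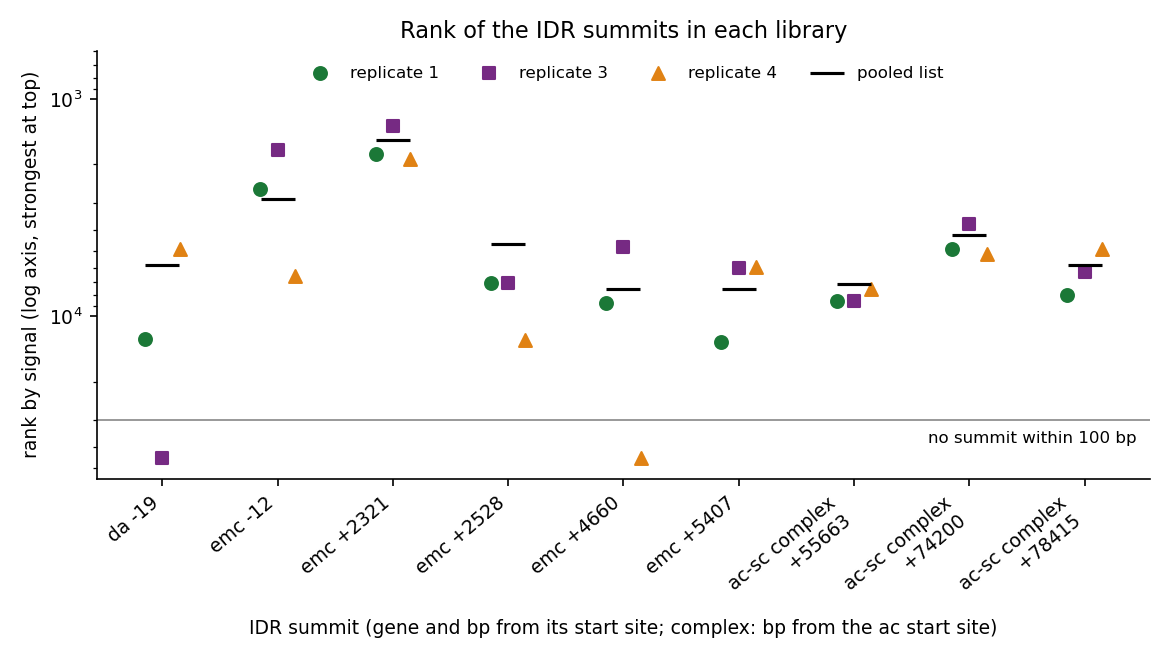
Rank by signal, on a log axis with the strongest at the top, of each IDR summit at da and emc and in the achaete-scute complex, in the 3 libraries (coloured symbols) and in the pooled list (black bars). Symbols under the grey line mark a library with no summit within 100 bp, which occurred for da in library 3 and for emc at +4660 in library 4; the 3 summits of the complex have all libraries above the line.

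The achaete-scute complex holds 4 of the 10 genes on X, all transcribed from the plus strand, and its genes share enhancers that lie between them. Achaete and Scute specify the precursors of the bristles, Lethal of scute acts in embryonic neuroblasts, and Asense is made in neural precursors after they are chosen. The genes are ac (FBgn0000022, from 370031 to 370947), sc (FBgn0004170, from 396060 to 397497), l(1)sc (FBgn0002561, from 409721 to 410817) and ase (FBgn0000137, from 460747 to 463176), each with 1 exon. They lie within the annotated span of CG32816 (FBgn0052816) on the opposite strand.

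None of the 4 had an IDR summit within 2 kb. The only pooled summit in their windows was at 396512, in the coding sequence of sc 452 bp from its start, with signal 41.8 and rank 25003 of 30000. No library had a summit within 100 bp of it, so this summit rests on the pooled list alone. Library 1 had its own weak summit near sc at 395652, of rank 16776, and weak summits near ac at 369944 and 370200, of ranks 28092 and 27051. Library 3 had a summit near ac at 369667, of rank 22464, and library 4 had none at either gene. At l(1)sc and ase no library had a summit in the window.

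Between the genes the picture differed by interval. From 2 kb before ac to 2 kb past ase, 97.1 kb from 368031 to 465176, lay 3 IDR summits and 26 relaxed summits. That is 3.09 IDR summits per 100 kb beside 6.01 over the whole X chromosome, and 26.8 relaxed summits per 100 kb beside 23.6. The interval from ac to sc had 10 relaxed summits, of which 1 was matched in all libraries and none was in the IDR list. The shorter interval from sc to l(1)sc had 2 relaxed summits, 1 of them matched in all libraries. The interval from l(1)sc to ase had 13, of which 7 were matched in all libraries, and all 3 IDR summits. It is also the longest, at 49929 bp against 25112 bp and 12223 bp.

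Those 3 summits are shown here because they are the only ones of the complex in the IDR list, and they lie where the 2 kb rule does not reach. The runs are again the 101 bases around each summit on the plus strand of dm6 with E-boxes in capitals, and the labels give the distance from the ac start site in bp.
complex +55663 (chrX:425644-425744): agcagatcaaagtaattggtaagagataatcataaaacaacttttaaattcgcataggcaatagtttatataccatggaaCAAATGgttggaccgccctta
complex +74200 (chrX:444181-444281): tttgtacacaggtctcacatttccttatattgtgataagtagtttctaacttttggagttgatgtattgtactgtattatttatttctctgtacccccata
complex +78415 (chrX:448396-448496): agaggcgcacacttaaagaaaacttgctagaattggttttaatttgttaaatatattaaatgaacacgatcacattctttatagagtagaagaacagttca
The summit at 444231 was the strongest of them, with signal 208 and rank 4245, and ranks of 4912, 3780 and 5198 in libraries 1, 3 and 4 (mean 4630 ± 750, SD, n = 3). At 448446 the signal was 164 and the rank 5844, with library ranks of 7953, 6273 and 4890 (mean 6372 ± 1534, SD, n = 3). At 425694 the signal was 141 and the rank 7130, with library ranks of 8554, 8559 and 7522 (mean 8212 ± 597, SD, n = 3). The start site nearest to 425694 was that of CG32816, 2557 bp away, against 15973 bp for l(1)sc. For 444231 and 448446 it was that of Pgcl, a protein-coding gene between l(1)sc and ase, 6783 and 10998 bp away. These summits lie at -16516 and -12301 bp from the ase start site. Which gene, if any, the summits act on was not tested. The summits at 444231 and 448446 each stood above the one at 425694 in every library. The order of 444231 and 448446 was not the same in every library, since library 4 placed 448446 higher. Among the 3 windows, only that at 425694 has an E-box, CAAATG, a core found at 9.15% of IDR summits. Over the 26 relaxed summits of the complex, 10 (38.5%) had an E-box, near the share of 41% over all relaxed summits. When a match among the 7571 strongest summits of 2 libraries was required, 2 of the 3 were left without replicate 1, and 1 without replicate 3 or without replicate 4.

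**Figure D4:**
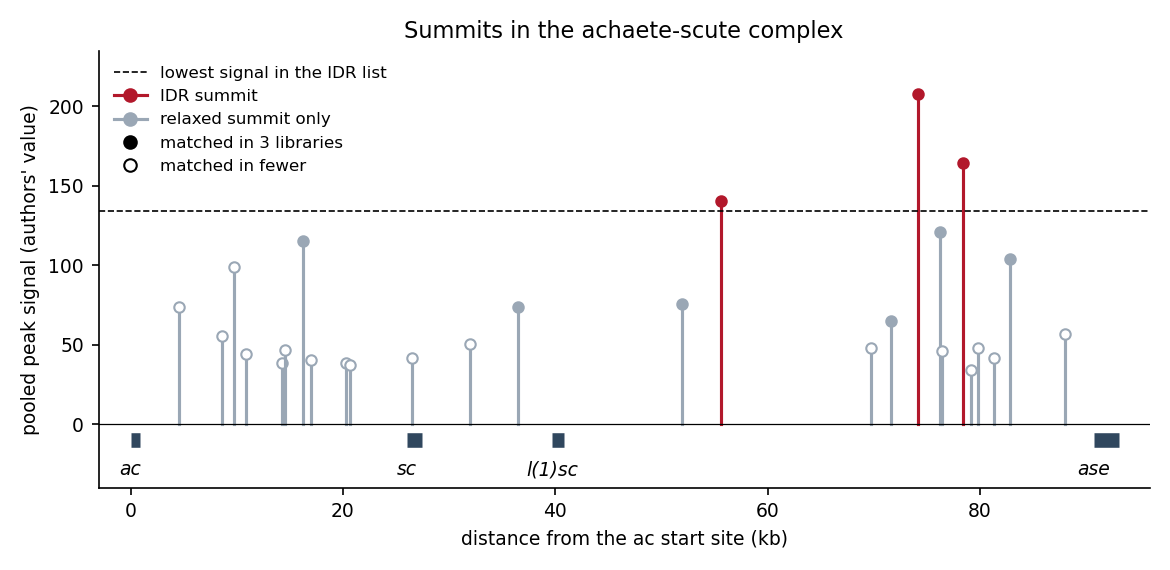
Pooled signal (the authors' value) of each summit from 2 kb before ac to 2 kb past ase, against distance from the ac start site in kb, with the genes as bars and the dashed line at the lowest signal in the IDR list. Filled symbols were matched in all 3 libraries and open ones in fewer; the 3 red IDR summits, of signal 141, 208 and 164, all stand between l(1)sc and ase.

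Just below the limit, the summit at 446279 between the stronger pair had signal 121 and rank 8579, but its library ranks of 4768, 25474 and 6636 were far apart. The summit at 452903, with signal 104 and rank 10107, had library ranks of 11472, 11420 and 11400, a mean of 11431 ± 37.2 (SD, n = 3). In the ac to sc interval the strongest was at 386310, next to the noncoding gene lncRNA:CR44752, with signal 115, rank 9059 and library ranks of 9904, 6586 and 15842. On the far side of ac, toward the pigment gene y, an IDR summit at 367049 lay 2982 bp from ac in the last exon of lncRNA:yar, with signal 139 and rank 7230. A stronger IDR summit at 361634 (signal 319, rank 2264) lay 765 bp upstream of the lncRNA:yar start site.

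Atonal specifies the chordotonal organs and the founder photoreceptors of the eye. Its gene, ato (FBgn0010433, 3R from 8278052 to 8279274, plus strand), had 2 relaxed summits and no IDR summit. The promoter summit is shown because it lies at the start of a proneural gene and was found in separate libraries. Another reason is its E-box, CACGTG, a core present at 0.792% of IDR summits. The ato summit is not in the IDR list, and the share of this core over relaxed summits was not counted. The relaxed summit at 446279 in the achaete-scute complex also has CACGTG within 50 bp.
ato -94 (chr3R:8277908-8278008): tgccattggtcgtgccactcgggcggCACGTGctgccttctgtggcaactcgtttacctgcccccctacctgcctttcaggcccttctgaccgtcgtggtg
The ato promoter summit had signal 85.7 and rank 12473, and ranks 16433 in library 1 and 15537 in library 4, with no match in library 3. Library 3 had a summit of rank 18061 at 8278110, inside the gene. The other ato summit, at 8281094 and 3042 bp from the start site, had signal 43.8 and rank 23880 and was matched only in library 1, at rank 15420. Both fell below the IDR limit in signal.

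The remaining genes had no pooled summit within 2 kb. The gene amos (FBgn0003270, 2L from 18596136 to 18596921, minus strand) encodes the proneural protein of a class of olfactory sensilla, and tap (FBgn0015550, 3L from 17359682 to 17361811, plus strand) encodes a neurogenin-like bHLH protein. Neither had a summit in any library. The gene cato (FBgn0024249, 2R from 16277685 to 16278396, minus strand) encodes a bHLH protein related to Atonal that acts in sensory precursors, and only library 3 had a summit near it, of rank 16898.

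Beyond the 2 kb windows, the nearest IDR summit was 8199 bp from amos (a strong summit of signal 1127, rank 151, that lies at the start of CG10413), 22799 bp from cato and 54335 bp from tap. It was 2982 bp from ac, 28197 bp from sc, 14877 bp from l(1)sc, 12301 bp from ase and 13176 bp from ato. The one nearest to ato lay 94 bp upstream of Mcm2, which encodes a subunit of the replicative helicase, and the one nearest to tap 335 bp upstream of blot. Over 13945 protein-coding genes the median distance was 5393 bp with quartiles of 507 and 15416 bp, and over the 9141 without an IDR summit in their window it was 11329 bp. Of protein-coding genes, 94.0% had an IDR summit nearer than tap did, 86.4% nearer than sc, 82.6% nearer than cato and 39.4% nearer than ac. For l(1)sc, ato, ase and amos these shares were 74.2%, 71.1%, 69.4% and 59.3%. Genes with an IDR summit in their window, 34.4% of all protein-coding genes, are nearer by the rule itself.

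Genes that act with the proneural set were read from lists written by role. Among 12 genes of the sensory organ precursor, downstream of the proneural proteins, 10 (83.3%) had an IDR summit, beside 34.4% of all protein-coding genes. All 10 are among its 11 genes of 3 kb or more, a class in which 50.7% of protein-coding genes had one. The strongest were at neur, which encodes an E3 ligase for Notch ligands, with signal 1327, rank 89 and a mean library rank of 101 ± 28.5 (SD, n = 3), at chn, which encodes a zinc finger protein, with signal 1275, rank 105 and 105 ± 6.93, and at cpo, which encodes an RNA-binding protein, with signal 418 and rank 1408. The cpo summit lay 166 bp upstream of DNaseII. Among 9 prepattern regulators, which position proneural expression, 6 (66.7%) had an IDR summit, all of them among its 8 genes of 3 kb or more, beside the same 34.4% and 50.7%. The strongest were at ush, a cofactor of the GATA factor Pannier, with signal 3538 and rank 2 and with cbt as the gene of the nearest start site, at tup, which encodes a LIM-homeodomain protein, with signal 960 and rank 236 and the nearest start that of CG10602, and at Bx, which encodes a LIM-only protein, with signal 401 and rank 1510.

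Among 15 other tissue-specific bHLH genes, 4 (26.7%) had an IDR summit, beside 34.4% of all protein-coding genes, and these were 4 of its 7 genes of 3 kb or more, beside 50.7%. The strongest was at net itself, with signal 486 and rank 1084 at 86 bp upstream of its start, followed by twi, the mesoderm determinant, with signal 422 and rank 1378. The twi summit lay in intron sequence of both twi and CG42741, at position -27703 bp from the nearest twi start site. The nearest start site of any gene was that of CG9896, 19521 bp away. All 8 genes of this list under 3 kb lacked an IDR summit, as did the 8 short genes of the proneural set. Of all protein-coding genes under 3 kb, 24.4% had one. A relaxed summit was found for 3 of the 8 short genes of this list and for 2 of those of the proneural set, beside 43.7%. Median spans were 1330.5 bp for the 10 genes, 2707 bp for the other bHLH genes, 15718 bp for the prepattern regulators and 17237.5 bp for the precursor genes, so the lists differ in length as well as in role. The part of length in their shares was not tested.

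**Figure D5:**
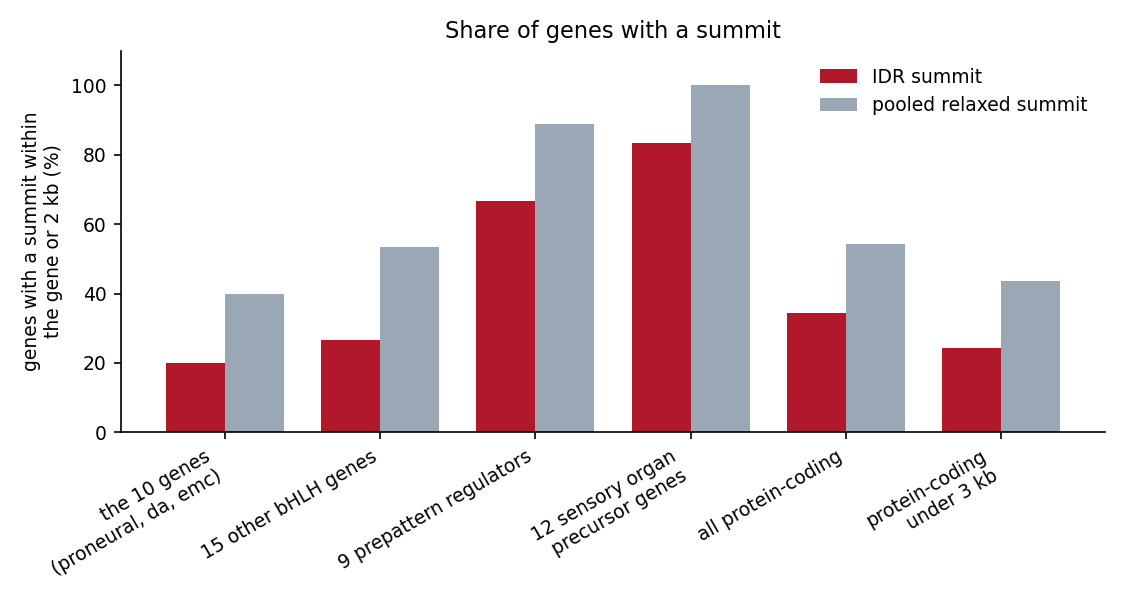
Percent of genes with an IDR summit (red bars) or any pooled relaxed summit (grey bars) inside them or up to 2 kb away, for the 10 genes, the other lists and all protein-coding genes, with y from 0. The 10 genes stand at 20% and 40%, beside 24.4% and 43.7% for all protein-coding genes under 3 kb.

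Among 4263 genes compared, those whose own strongest IDR summit had library ranks closest to those of the emc intron summit were Eip63F-1 (ranks 1839, 1384 and 1876), CG6168 (1747, 1551 and 1898) and CG5554 (1798, 1572 and 1814). The summits of CG6168 and CG5554 were intergenic, with the nearest start sites those of lncRNA:CR46240 and Snap29. The sums over the 3 libraries of the absolute log2 ratio of ranks were 0.10, 0.25 and 0.30. Likeness of ranks says only that these summits have similar strength in each library.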

How the data were processed

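The deposited files are peak lists, and per the labels they come from 3 anti-GFP ChIP-seq libraries of net-GFP prepupae. Per the deposited file descriptions, the authors called relaxed lists per library and on the pooled alignments, with a control alignment not analysed here, and derived the IDR list from them. No source used here gives the aligner or the peak caller. The signal of each peak is the deposited value of the authors' caller, and no value was rescaled. The dm3 lists were not used.

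Summits were placed at the peak start plus the deposited offset, and coordinates are 1-based on dm6. Gene models came from Ensembl release 115, and sequence from RefSeq's copy of the Release 6 assembly. A library's strongest summit within 100 bp counted as a match, and ranks are by signal. E-boxes (CANNTG, which reads the same on both strands) were sought within 50 bp of a summit. Summits shared by several genes count for each. There is 1 group, and the control was not analysed here, so no test was made, and spread is given as the SD over libraries. The counting step was checked on simulated data. Python 3.11.15, numpy 2.4.6 and pandas 2.3.3 were used.

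The 10 genes and the other lists were chosen with earlier results of these data known. Named besides the 10 were genes that hold or start nearest to a summit described, although the nearest start was not given for every summit. Also named were the 3 genes with the strongest IDR summit in each other list, and the 3 with library ranks most like those of the strongest emc summit. A gene that this rule names among the other bHLH genes is not reported here. Summits outside the 2 kb windows, the da gaps and the words TATAAA and TATCGAT were picked after their values were seen. Alternatives changed the window, the list length and the libraries.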

Additional observations from a re-analysis of the deposited data

How the results depend on the processing

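Counts at the 10 genes depended on the window and on the libraries required, and emc was the gene kept under every alternative run. The 2 genes with an IDR summit became 1 (emc) when the summit had to lie in the gene, when only IDR peaks above the list's median signal were kept, when a match in the equally long top list of each library was required, and in the range of 1 to 1 when any 1 library was left out of that match. With a 5 kb window they became 3, adding ac. The 6 IDR summits became 2 in the gene only, within 500 bp of the gene's own start site, above the median signal and with the match in every top list, and 2 to 3 with a library left out of it. The 4 genes with a relaxed summit became 2 in the gene only, 7 within 5 kb, 1 with a match in every library, and 1 to 3 with a library left out, where 3 (da, emc and ato) is the value without replicate 3. The 4 IDR summits matched in all libraries became 2 in the equally long top lists, and 4 to 5 with a library left out. Above the median signal, summits near a TSS went from 2 to 1 and those with an E-box from 4 to 1. The 3 IDR summits of the achaete-scute complex became 26 in the relaxed list, 0 above the median signal, and 1 to 2 with a library left out of the match. The alternatives differ in window, list length or libraries, and the cause of these moves was not tested. Of the 18 alternatives for ranks of single summits, 15 stayed within the spread between libraries. The other 3 moved the emc summit at 751928 from rank 4653 to means of 8983 to 9964.5. That spread is the SD of the same library ranks, so staying within it is a loose criterion. For da and for emc at 754060 the only alternative left out the library without a matching summit, so it cannot show how stable these ranks are. No paired analysis was possible because the samples form 1 group. Depth is unknown, so a gene without a summit is not shown to be unbound.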
